A study of Mus musculus with 8 samples.

Results

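The expression of 8 transcription factor genes of the craniofacial mesenchyme (Twist1, Twist2, Msx1, Msx2, Alx4, Prrx1, Prrx2 and Tfap2b) was followed by symbol through 8 RNA sequencing libraries of cultured mouse osteoblast progenitors. All 8 symbols were found among the 51822 gene symbols used, and 7 of them passed the filter on low values (2 or more libraries with an RPKM of 1 or more) that left 12514 genes for testing. Tfap2b did not pass. RPKM divides the reads of a gene by its length and by the depth of the library.

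The cells were grown in osteogenic medium (ascorbic acid, dexamethasone and β-glycerophosphate, in all groups) with DMSO as vehicle (control) or with 1 μmol·L−1 LAMZ (locamidazole, an aminoindazole derivative), and RNA was taken on day 7 or day 14. Each of the 4 groups had 2 libraries. The labels name MC3T3-E1, an osteoblastic line cloned from mouse calvaria, whereas the methods name cultured calvarial cells. No label says that libraries of a group came from separate cultures, so a p-value here measures only the spread between these libraries, which may be technical.

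Twist proteins are basic helix-loop-helix (HLH) factors that bind DNA as dimers with E proteins such as Tcf3, Tcf4 and Tcf12, while Id proteins, which lack a DNA-binding region, compete for the same partners. In the skull vault, Twist1 keeps sutural mesenchyme undifferentiated and restrains Runx2, and loss of a copy leads to early suture closure. Msx, Alx and Prrx proteins are homeodomain factors of the same mesenchyme, and Tfap2b is an AP-2 factor of the neural crest, from which the frontal part of the vault arises.

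The recovered depth was 3463538 to 5832101 mapped reads per library. All 10 osteoblast markers (Col1a1 and Col1a2 had the highest RPKM) stood at or above 1 RPKM in every library, with a summed RPKM of 7123 to 10850 in control libraries and 9322 to 16442 in LAMZ libraries. Macrophage markers, which an osteoblastic line is not known for, were also present in the control libraries. Their summed RPKM (12 genes) was 459 and 592 in day 7 control libraries and 1102 and 1149 in day 14 control libraries, against 7.09 to 9.13 in the 4 LAMZ libraries. Lyz2 and C1qb had the highest RPKM on that list, and C1qa, C1qb, C1qc, Tyrobp and Laptm5 were at 0 in every LAMZ library. At day 7, 10 of the 12 macrophage markers fell (limma, adjusted p under 0.05), and at day 14 it was 11, although 11 of the 12 entered the test only through their control libraries. Every LAMZ comparison given here therefore runs alongside a loss of macrophage RNA, whose part in the results was not tested. In bulk RNA, fewer cells of a type and less RNA per cell cannot be told apart.

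**Figure D1:**
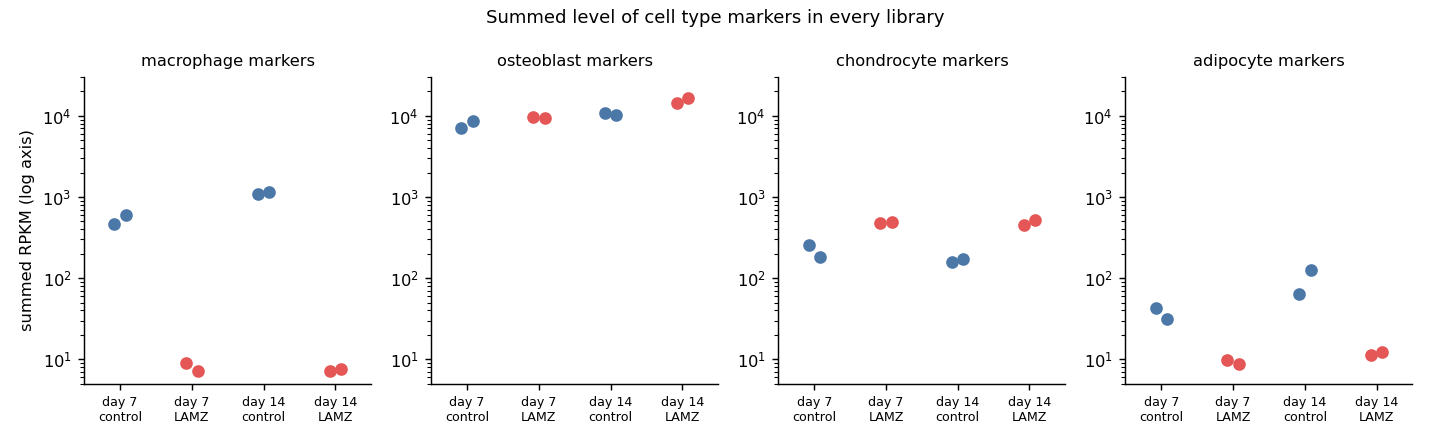
Summed RPKM (log axis) of 4 marker lists in each library, with control libraries in blue and LAMZ libraries in red. Macrophage markers were at 459 to 1149 in control and 7.09 to 9.13 in LAMZ libraries, and adipocyte markers at 31.0 to 126 and 8.63 to 12.2, whereas osteoblast markers were at 7123 or more in every library.

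In day 7 control libraries, the order of the mean RPKM was Prrx1 (30.4), Twist1 (28.8), Prrx2 (23.5), Msx1 (13.4), Alx4 (8.79), Msx2 (8.19), Twist2 (3.13) and Tfap2b (0.131). The libraries of Prrx1 and Twist1 overlapped, as did those of Twist1 and Prrx2 and those of Alx4 and Msx2, so these neighbours were not separated. In day 14 LAMZ libraries, no neighbours in the order overlapped, and it ran Prrx1 (17.2), Prrx2 (12.4), Twist1 (10.9), Alx4 (8.61), Msx1 (5.37), Msx2 (3.24), Twist2 (0.291) and Tfap2b (0.0135). Twist1 thus stood below Prrx2, and Msx1 below Alx4, in groups that differ from the first in both day and treatment. In day 14 control libraries, Prrx2 (24.8) and Twist1 (24.0) overlapped, as did Msx1 (12.0) and Alx4 (10.4). In day 7 LAMZ libraries, Prrx2 (16.2) stood above Twist1 (13.6), and Msx1 (11.2) above Alx4 (10.1). RPKM compares these genes per length, with the length that the authors' annotation gave each gene.

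**Figure D2:**
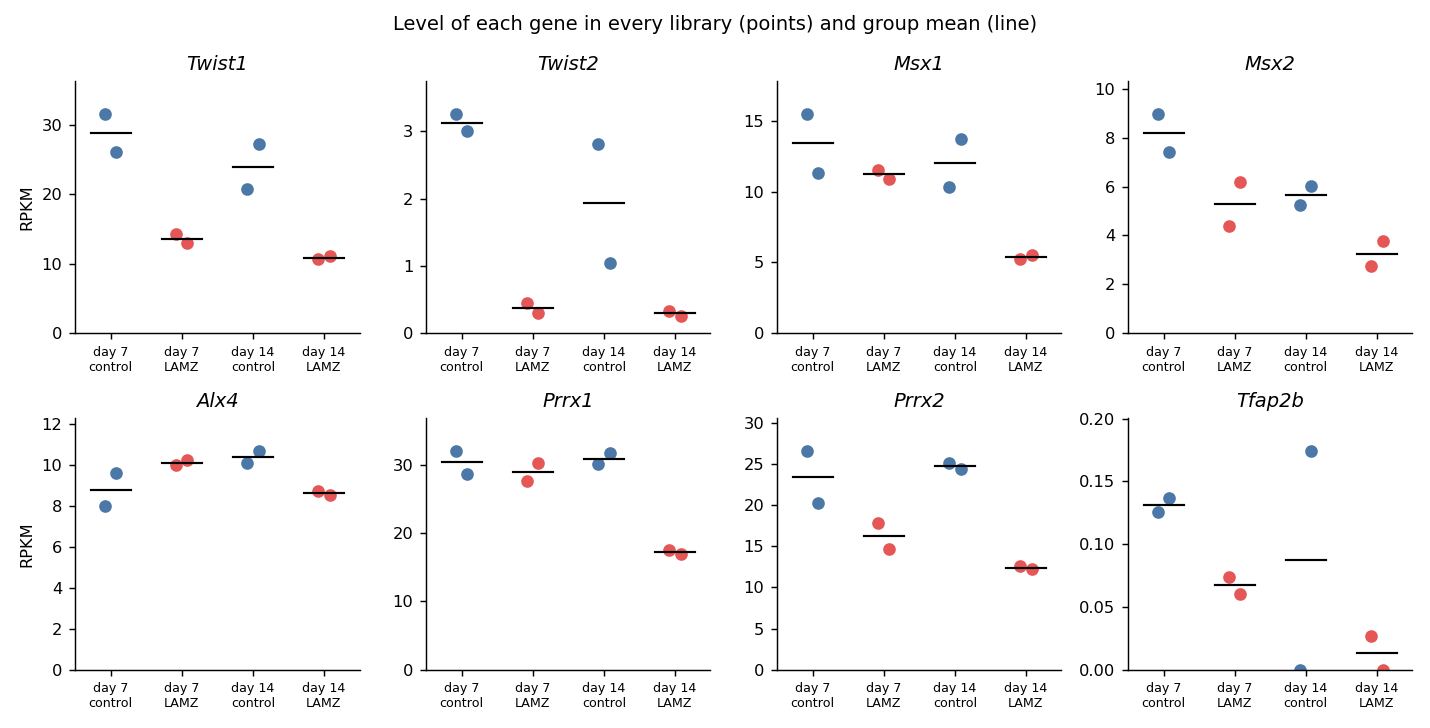
RPKM of the 8 genes in each library (points, 2 per group) with the group mean (line), control in blue and LAMZ in red. Twist1 and Twist2 were lower with LAMZ at both days, and Prrx1, Prrx2 and Msx1 were clearly lower at day 14. Msx2 was also lower at day 14, by less, Alx4 stayed between 7.96 and 10.7 RPKM, and Tfap2b stayed near 0.

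The sequence before the start site is shown for Twist1 and Twist2, which fell at both days, and for Msx1 and Prrx1, whose fall was called at day 14. The sequences are those of RefSeq on GRCm38.p6, each 120 bases long and read 5′ to 3′ on the strand of the gene, with capitals for a motif that was searched for. Those of Twist1, Twist2 and Msx1 end at the base before the RefSeq start, and that of Prrx1 runs from 230 to 111 bases before it.
Twist1, chr12:33957551-33957670, plus strand: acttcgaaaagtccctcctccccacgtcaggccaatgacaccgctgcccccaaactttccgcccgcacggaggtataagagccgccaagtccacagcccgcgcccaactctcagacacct
Twist2, chr1:91801341-91801460, plus strand: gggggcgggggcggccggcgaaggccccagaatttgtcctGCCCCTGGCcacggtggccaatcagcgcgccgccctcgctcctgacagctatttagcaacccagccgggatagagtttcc
Msx1, chr5:37824586-37824705, minus strand: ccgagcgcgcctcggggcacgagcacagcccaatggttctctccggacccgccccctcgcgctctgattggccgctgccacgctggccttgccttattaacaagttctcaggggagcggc
Prrx1, chr1:163313761-163313880, minus strand: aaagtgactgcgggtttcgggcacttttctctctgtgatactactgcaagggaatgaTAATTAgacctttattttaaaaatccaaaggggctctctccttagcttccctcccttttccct

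RefSeq gave a window of 250 bases before the start for 7 of the 8 genes, all but Alx4. The motifs searched, each of which reads the same on both strands, were the E-boxes CATATG and CAGCTG, the homeodomain core TAATTA and the AP-2 motif GCCNNNGGC. CATATG and CAGCTG were in 0 of the 7 windows, and in 3.47% and 13.0% of the 32817 windows of the table. TAATTA was in 2 of 7 windows (Prrx1 and Msx2) and in 4.85% of all windows, and GCCNNNGGC was in 2 of 7 (Twist2 and Prrx2) and in 13.7% of all windows. The GC content of the window was 62.4% for Twist1, 68.8% for Twist2, 68.0% for Msx1 and 47.6% for Prrx1. For Msx2, Prrx1, Prrx2 and Tfap2b, the RefSeq start lies inside the gene span of the GENCODE annotation. A match is a match of letters only.

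At day 7, 2 of the 7 tested genes fell with LAMZ (Twist1 and Twist2) and the other 5 did not pass the test. Among all tested genes, 8.49% were called lower in that comparison. At day 14, 6 of the 7 fell (all but Alx4), where 16.0% of all tested genes were called lower. Averaged over both days, the same 6 genes fell, against a background of 20.3%. Twist2 reached 1 RPKM only in control libraries and so could enter the test only as a gene lower with LAMZ, which leaves 1 of the other 6 genes at day 7 and 5 of them at day 14. With libraries centred on their median or quantile normalized, 4 of the 7 were called at day 14, without Twist2 (limma adjusted p = 0.0644 and 0.0729) and Msx2 (0.102 and 0.0942). Of all 12514 tested genes, these 2 scalings called 2857 and 2674 at day 14, of which 56.3% and 47.9% were higher. As a group, the 7 had a median log2 fold change of −0.50 at day 7 and −0.94 at day 14, beside −0.08 and −0.15 over all tested genes. These values come from limma on log2(RPKM + 1), a scale that understates the change of low genes.

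**Figure D3:**
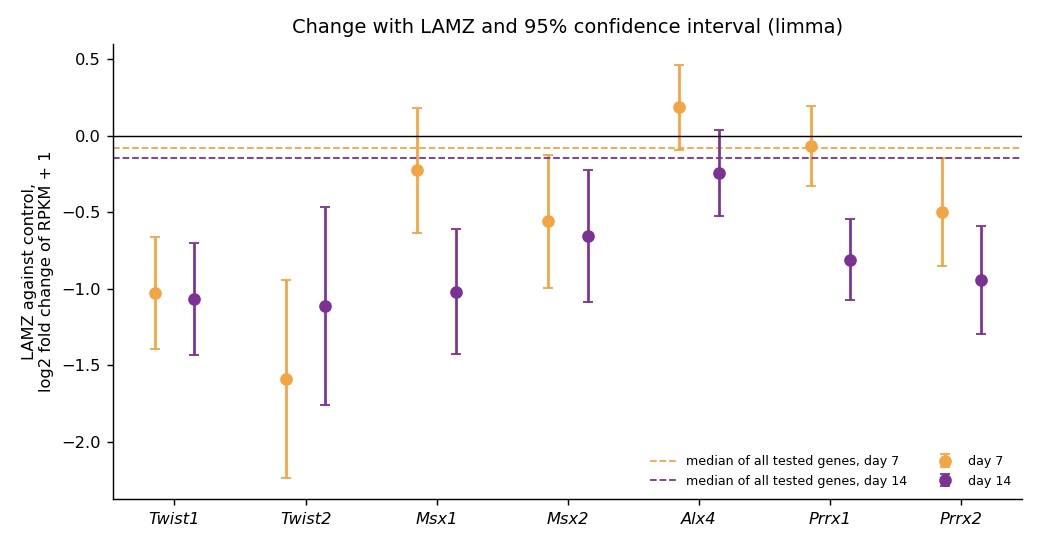
Log2 fold change of RPKM + 1 with LAMZ against control at day 7 (orange) and day 14 (purple) for the 7 tested genes, with 95% confidence intervals from limma and dashed lines at the median of all tested genes. Twist1 lay near −1 at both days, and the estimates of Msx1, Prrx1 and Prrx2 were further below 0 at day 14 than at day 7.

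Twist1 (chr12:33957671-33959829, plus strand, GRCm38, with no overlapping gene in the annotation) stood at 31.6 and 26.1 RPKM in day 7 control libraries and at 14.3 and 13.0 in day 7 LAMZ libraries. In day 14 libraries it stood at 20.7 and 27.3 RPKM in control and at 10.6 and 11.1 in LAMZ libraries. Every LAMZ library was below every control library. The mean with LAMZ was 0.472 of the control mean at day 7 (13.6 ± 0.911 against 28.8 ± 3.91, SD, n = 2) and 0.452 of it at day 14. On the log2 scale the change was −1.03 at day 7 (95% confidence interval −1.39 to −0.66, limma adjusted p = 0.00572) and −1.06 at day 14 (−1.43 to −0.70, limma adjusted p = 0.00274). Of all tested genes, 3.31% had a lower log2 fold change at day 7 and 5.26% at day 14. These values rest on 88 to 201 reads per library. Without day 7 LAMZ library 2, the day 7 call was lost (log2 fold change −0.96, limma adjusted p = 0.0503).

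Twist2, the closest relative of Twist1 and a factor of dermal and cranial mesenchyme (chr1:91801461-91848028, plus strand), was an order of magnitude lower. Its RPKM was 3.26 and 3.002 in day 7 control libraries and 0.443 and 0.302 in day 7 LAMZ libraries. At day 14 it was 2.82 and 1.05 in control libraries and 0.324 and 0.258 in LAMZ libraries. The LAMZ libraries lay below all control libraries, and the day 14 control libraries were far apart. The gene was counted on 39 and 33 reads against 6 and 5 at day 7, and on 48 and 15 against 6 and 4 at day 14. The ratio of means was 0.119 at day 7 (95% interval 0.0558 to 0.221 from the summed reads, counting error only) and 0.151 at day 14 (0.0670 to 0.288).

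On the log2(RPKM + 1) scale, Twist2 changed by −1.59 at day 7 (95% confidence interval −2.24 to −0.94, limma adjusted p = 0.0101) and by −1.11 at day 14 (−1.76 to −0.47, limma adjusted p = 0.0247). Twist2 passed the filter only through its control libraries, so it could enter the test only as a gene that was higher there. Leaving out 1 library ended its call in 3 of the 8 cases at day 7 and in 3 at day 14 (limma adjusted p = 0.0926 without day 14 control library 1). A pair of unnamed transcripts, Gm29100 (antisense) and Gm29101, lie within its span, and reads of an antisense partner cannot be told apart where strand was not counted.

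The log2 ratio of Twist1 to Twist2 compares both genes within a library, where a scaling between libraries has no part. It was 3.28 and 3.12 in day 7 control libraries, 5.01 and 5.42 in day 7 LAMZ libraries, 2.88 and 4.71 in day 14 control libraries and 5.04 and 5.42 in day 14 LAMZ libraries. All 4 LAMZ libraries were above all 4 control libraries. Twist2 passed the filter only through its control libraries and held 4 to 6 reads in each LAMZ library. A higher ratio with LAMZ is therefore no sign independent of that selection. The ratio was higher by 1.73 with LAMZ on average over both days (exact permutation test within days, two-sided, p = 0.0556, 0.0833 adjusted over 3 pairs). That is the smallest p that 36 relabelings can give, so the design cannot reach 0.05. With 1 added to both RPKM values, the difference was 0.31 (exact permutation p = 0.444).

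**Figure D4:**
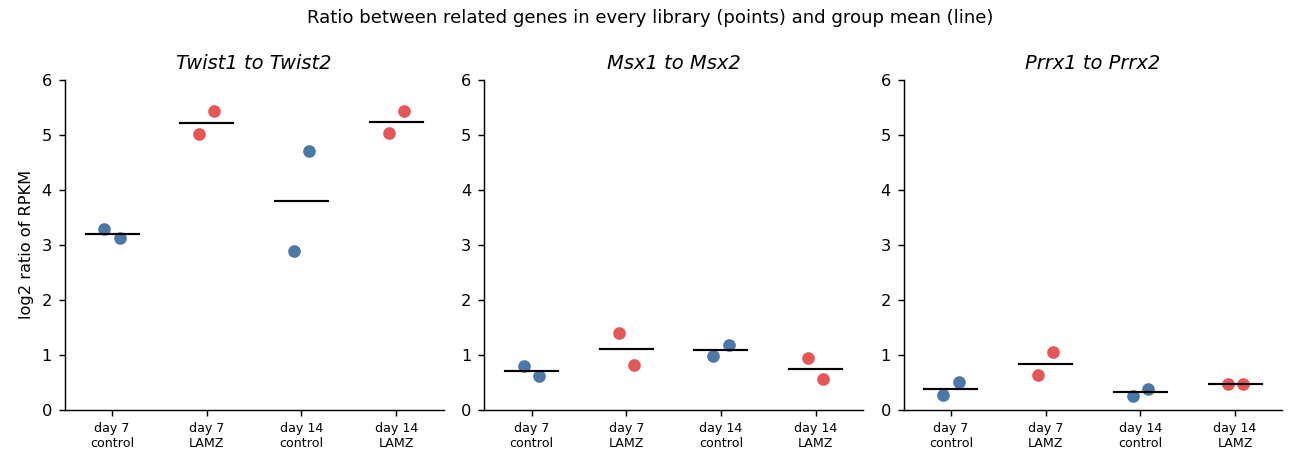
Log2 ratio of RPKM between related genes in each library (points) with the group mean (line), control in blue and LAMZ in red. For Twist1 to Twist2 the LAMZ libraries sat between 5.01 and 5.42 and the control libraries between 2.88 and 4.71. Twist2 passed the filter only through control libraries and held 4 to 6 reads in each LAMZ library. The ratios of Msx1 to Msx2 overlapped between control and LAMZ over the libraries of both days.

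Of the 11 HLH partners listed, 7 were tested. At day 7, 2 fell and 5 did not pass, and at day 14, 4 fell and 3 did not pass, where 8.49% and 16.0% of all tested genes were called lower. The list had a median change of −0.31 on the log2 scale at day 7 and −0.60 at day 14. All 4 that fell at day 14 were Id genes. Id1 went from 24.2 and 18.4 RPKM in control to 7.48 and 4.96 with LAMZ at day 7, and from 26.0 and 25.4 to 7.98 and 12.5 at day 14. Its log2 fold change was −1.64 (limma adjusted p = 0.00469) and −1.27 (0.00768). Id3 changed by −1.05 at day 7 (0.00886) and by −0.87 at day 14 (0.0113). Id2 (−0.60) and Id4 (−0.89) passed the test at day 14 with limma adjusted p = 0.0335 and 0.0325. With libraries centred on their median, 2 of the list were called lower at day 14. That centring called 2857 of all 12514 tested genes at day 14, of which 56.3% were higher. With libraries scaled to the same summed RPKM, 6 were called lower at day 7 and all 7 at day 14, E protein genes included. Of all 12514 tested genes, the same sum called 3592 at day 7 (8.69% of them higher) and 5796 at day 14 (8.16% of them higher).

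The E protein genes did not pass the main test at either day. Averaged over both days, Tcf4 was called lower (log2 fold change −0.27, limma adjusted p = 0.0420). Tcf3 changed by −0.31 and −0.16 on the log2 scale at day 7 and day 14, Tcf4 by −0.28 and −0.25 and Tcf12 by 0.07 and −0.27. Their mean RPKM over the 8 libraries was 20.5, 3.21 and 4.99, so Tcf3 stood near the level of Twist1. The other 4 listed partners (Hand1, Hand2, Tcf15 and Tcf21) were under 0.1 RPKM on average.

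Msx1 and Msx2 act downstream of BMP signalling in the growing skull vault, where Msx2 dosage sets the closure of the midline. Msx1 (chr5:37820485-37824583, minus strand) stood at 15.5 and 11.3 RPKM in day 7 control and at 11.5 and 10.9 in day 7 LAMZ libraries, which overlapped. At day 14 it stood at 10.3 and 13.7 RPKM in control and at 5.23 and 5.50 in LAMZ libraries, which did not. The change was −0.22 on the log2 scale at day 7 (95% confidence interval −0.63 to 0.18, limma adjusted p = 0.461) and −1.02 at day 14 (−1.43 to −0.61, limma adjusted p = 0.00538). The day 14 ratio of means was 0.447. The difference between the days was −0.79 (−1.37 to −0.22, limma adjusted p = 0.183) and did not pass the test.

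Msx2 (chr13:53466884-53473074, minus strand) stood at 8.97 and 7.42 RPKM in day 7 control and at 4.40 and 6.18 in day 7 LAMZ libraries. Day 14 values were 5.24 and 6.04 in control and at 2.73 and 3.76 in LAMZ libraries. LAMZ libraries were below the control libraries of their day in both cases. The log2 fold change was −0.56 at day 7 (95% confidence interval −0.99 to −0.12, limma adjusted p = 0.0948) and −0.65 at day 14 (−1.09 to −0.22, limma adjusted p = 0.0402). The day 14 call held in 10 of 21 alternatives, and leaving out any of the 4 day 14 libraries ended it (limma adjusted p from 0.0553 to 0.204). The annotation's lengths of Msx1 and Msx2 did not give whole reads. At the smallest lengths that did, 1935 and 2453 bases, the libraries held 52 to 120 and 39 to 83 reads.

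The log2 ratio of Msx1 to Msx2 was 0.79 and 0.61 in day 7 control, 1.39 and 0.82 in day 7 LAMZ, 0.98 and 1.18 in day 14 control and 0.94 and 0.55 in day 14 LAMZ libraries. It differed by 0.04 between LAMZ and control on average over both days (exact permutation test within days, two-sided, p = 0.944). The sign of so small a difference turned under other settings.

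Prrx1 and Prrx2 mark early limb and craniofacial mesenchyme, and Prrx1-expressing cells of the sutures can form bone. Prrx1 (chr1:163245119-163313710, minus strand) was the most deeply counted of the 8, with 914 to 1789 reads per library. It stood at 32.1 and 28.6 RPKM in day 7 control and at 27.6 and 30.3 in day 7 LAMZ libraries. At day 14 it stood at 30.1 and 31.7 RPKM in control and at 17.5 and 16.9 in LAMZ libraries. The libraries overlapped at day 7, and those of day 14 LAMZ were below all 6 others. The log2 fold change was −0.07 at day 7 (95% confidence interval −0.33 to 0.20, limma adjusted p = 0.760) and −0.81 at day 14 (−1.07 to −0.55, limma adjusted p = 0.00216). The day 14 ratio of means was 0.557.

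The difference between the days in the LAMZ change of Prrx1 was −0.74 (95% confidence interval −1.12 to −0.37). It did not pass after adjustment (limma adjusted p = 0.0897, unadjusted 0.00179), whereas limma voom on the recovered reads, tried after the data were seen, called it (adjusted p = 0.0184). None of the 7 tested genes was called in this comparison by the main fit, which called 0.623% of all tested genes. Voom called 1 of the 7, and 336 of the 12166 genes in its fit. In the main fit, 3 had an unadjusted p under 0.05 (Prrx1, Msx1 and Alx4). No share over all genes is given for that threshold. Annotated transcripts Gm20471 (antisense), Gm26523 and Gm37644 overlap Prrx1, and the read counts cannot separate an antisense partner where strand was not counted.

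Prrx2 (chr2:30834972-30881251, plus strand) stood at 26.6 and 20.3 RPKM in day 7 control and at 17.8 and 14.7 in day 7 LAMZ libraries. Day 14 values were 25.2 and 24.4 in control and at 12.6 and 12.2 in LAMZ libraries. LAMZ and control libraries did not overlap at either day. The change was −0.50 on the log2 scale at day 7 (95% confidence interval −0.85 to −0.14, limma adjusted p = 0.0726) and −0.94 at day 14 (−1.30 to −0.59, limma adjusted p = 0.00405). The day 14 ratio of means was 0.501.

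The log2 ratio of Prrx1 to Prrx2 was 0.27 and 0.50 in day 7 control, 0.63 and 1.05 in day 7 LAMZ, 0.26 and 0.38 in day 14 control and 0.47 and 0.47 in day 14 LAMZ libraries. Within each day, both LAMZ libraries were above both control libraries. The ratio was higher by 0.30 with LAMZ (exact permutation test within days, two-sided, p = 0.0556, the smallest possible, 0.0833 adjusted over 3 pairs).

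Alx4, a homeodomain factor whose loss leaves gaps in the parietal bones, did not pass the test at either day. It stood at 7.96 and 9.61 RPKM in day 7 control and at 9.96 and 10.2 in day 7 LAMZ libraries. At day 14 it stood at 10.1 and 10.7 in control and at 8.72 and 8.50 in LAMZ libraries. The LAMZ libraries thus lay above the control libraries at day 7 and below them at day 14. The log2 fold change was 0.19 (95% confidence interval −0.09 to 0.47, limma adjusted p = 0.367) and −0.24 (−0.52 to 0.04, limma adjusted p = 0.187), so a decrease as large as that of Twist1 lay outside the interval at both days. With libraries scaled to the same summed RPKM, the value was −0.09 at day 7 and −0.58 at day 14 (limma adjusted p = 0.0114). Alx4 (chr2:93642384-93681339, plus strand) overlaps Ext2 on the other strand, whose reads cannot be set apart without strand. It was counted on 212 to 382 reads.

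Tfap2b (chr1:19208914-19238576, plus strand) was at 3 and 3 reads in day 7 control, 2 and 2 in day 7 LAMZ, 0 and 5 in day 14 control and 1 and 0 in day 14 LAMZ libraries. All but 1 library were at or under a floor of 3 reads (the number that a count of 0 allows), which corresponds to 0.0812 to 0.137 RPKM, so no fold is given and a difference was not detectable at this depth. The other AP-2 genes (Tfap2a, Tfap2c, Tfap2d and Tfap2e) were also under the filter, with a mean RPKM of 0.0322 to 0.0679. Neural crest and Schwann markers Sox10, Foxd3 and Erbb3 had a mean RPKM of 0.247, 0.189 and 0.302. Of that list of 6, S100b (6.47) was the only gene tested, and it did not pass (limma adjusted p = 0.801 and 0.0636).

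From day 7 to day 14 in control cultures, none of the 7 tested genes was called (limma), where 4.86% of all tested genes were called. Voom called none of the 7 either, and 1047 of the 12166 genes in its fit. In the main fit, 1 had an unadjusted p under 0.05 (Msx2, log2 fold change −0.47), a threshold for which no share over all genes is given. In LAMZ cultures, 2 of the 7 fell over that time, where 9.26% of all tested genes were called lower. Msx1 changed by −0.94 (limma adjusted p = 0.0126) and Prrx1 by −0.72 (limma adjusted p = 0.00691). These comparisons share the day 14 LAMZ or control libraries with those above. The call of Msx1 was lost when any of the 4 LAMZ libraries was left out (limma adjusted p from 0.0695 to 0.0786). The call of Prrx1 was lost without LAMZ library 2 of day 7 (0.0673) or of day 14 (0.0559).

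Among the other craniofacial homeobox genes, 16 of 29 were tested. At day 7, 4 rose and 2 fell, and at day 14, 2 rose and 4 fell, where 4.35% and 6.96% of all tested genes were called higher and 8.49% and 16.0% lower. The Dlx genes among them act in jaw patterning and in osteoblast differentiation. Dlx5 went from 4.47 and 5.88 RPKM in control to 15.3 and 12.5 with LAMZ at day 7, and from 4.45 and 5.91 to 8.07 and 9.07 at day 14. Its log2 fold change was 1.28 (limma adjusted p = 0.00351) and 0.64 (0.0344). Dlx3 changed by 1.23 (0.00506) and 0.84 (0.0144). Dlx6 rose at day 7 (0.85, limma adjusted p = 0.0128) and did not pass at day 14. With libraries scaled to the same sum, 0 of the list were called higher and 10 lower at day 14, with no change of sign among those called here. That scaling called 5796 of all 12514 tested genes at day 14, of which 8.16% were higher.

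Among the genes of this list that fell, Lmx1b, a LIM homeobox gene of the dorsal limb, the eye and the skull vault, stood at 5.76 and 4.56 RPKM in control against 3.56 and 3.07 with LAMZ at day 7, and at 2.67 and 2.81 against 1.48 and 1.22 at day 14. LAMZ libraries were below the control libraries of their day. The change was −0.51 on the log2 scale at day 7, which did not pass (limma adjusted p = 0.0596), and −0.67 at day 14 (0.0140). These 16 genes had a median change of −0.30 on the log2 scale at day 7 and −0.40 at day 14.

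Other transcription factors of head mesenchyme (22 of 25 tested) showed 3 that fell at day 7 and 11 at day 14, with 19 and 11 that did not pass, where 8.49% and 16.0% of all tested genes were called lower. Of those that fell, Osr2 entered the test only through its control libraries. The 22 tested genes had a median log2 fold change of −0.12 at day 7 and −0.62 at day 14. Osr1, a zinc finger gene of mesenchymal progenitors, stood at 7.70 and 6.99 RPKM in control against 4.65 and 3.81 with LAMZ at day 7, and at 6.31 and 5.78 against 2.66 and 2.88 at day 14 (log2 fold change −0.68 and −0.90, limma adjusted p = 0.0139 and 0.00232). Osr2 was counted on 14 and 10 reads in control and 3 and 2 with LAMZ at day 7. At day 14 it was counted on 12 and 6 reads in control and on 0 and 0 with LAMZ. The day 14 control mean was 3.15 times a floor of 3 reads per LAMZ library, a value that leaves out the counting error of the control. The Osr2 reads were derived at the smallest length that gave whole reads, 1721 bases. The nuclear receptor genes Nr2f2 (−0.76, limma adjusted p = 0.0260, and −0.84, 0.0104) and Nr2f1 (−1.07 at day 14, 0.0259) also fell. Zeb2 stood at 5.47 and 5.83 against 5.64 and 4.95 RPKM at day 7 and at 6.35 and 6.92 against 3.04 and 2.82 at day 14 (log2 fold change −0.96, limma adjusted p = 0.00124).

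**Figure D5:**
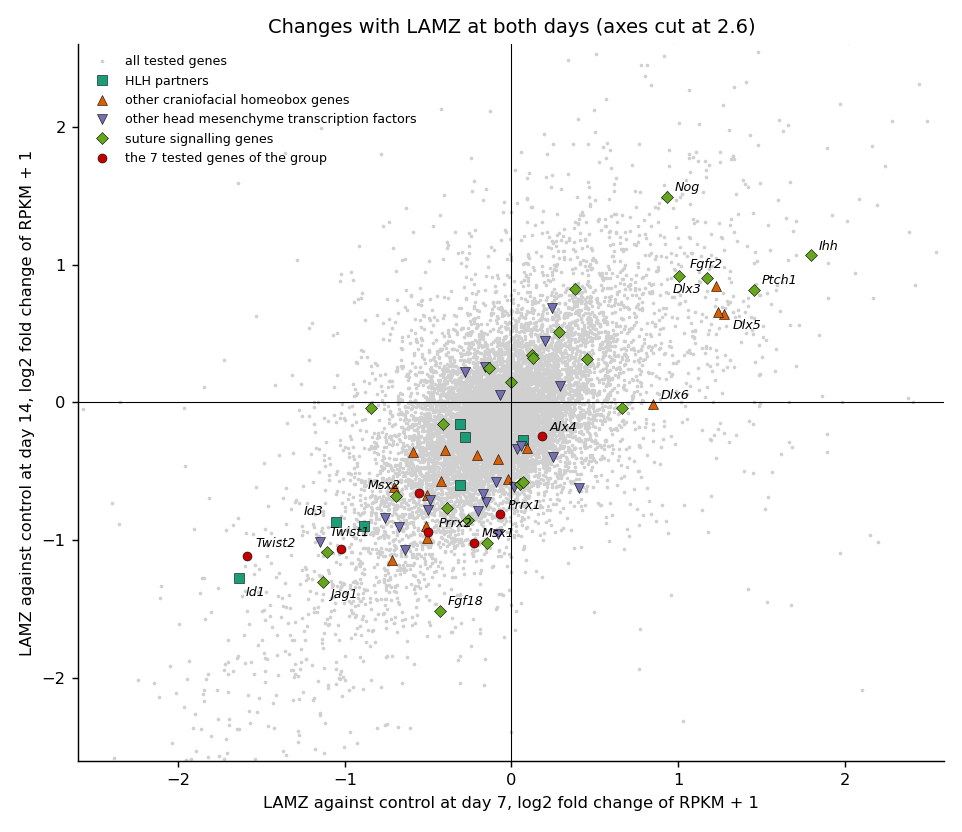
Log2 fold change of RPKM + 1 with LAMZ at day 7 (x axis) against day 14 (y axis) for all tested genes (grey), the 7 tested genes of the group (red) and 4 lists of related genes. Twist1 and Twist2 lay with Id1, Id3 and Jag1 among genes below 0 at both days, opposite to Dlx3, Dlx5, Fgfr2, Ptch1 and Ihh.

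Suture signalling genes (24 of 25 tested) moved in both directions, with 6 that rose and 3 that fell at day 7, and 6 that rose and 8 that fell at day 14. Over all tested genes, 4.35% were called higher and 8.49% lower at day 7, and 6.96% and 16.0% at day 14. The day 14 balance turned with the scaling, with 10 higher and 6 lower after median centring, 10 and 7 after quantile normalization and 4 and 9 at the same sum. Of all 12514 tested genes, these scalings called 2857, 2674 and 5796 at day 14, of which 56.3%, 47.9% and 8.16% were higher. Fgfr2, the receptor gene altered in several craniosynostosis syndromes, went from 40.8 and 45.7 RPKM in control to 102 and 96.1 with LAMZ at day 7, and from 45.7 and 44.5 to 83.7 and 86.1 at day 14 (log2 fold change 1.18 and 0.90, limma adjusted p = 0.000658 and 0.00118). The hedgehog ligand gene Ihh changed by 1.80 and 1.07 (0.00224 and 0.0115), and the hedgehog receptor gene Ptch1 by 1.46 and 0.82 (0.00213 and 0.0141). Of the Gli genes, counted with the head mesenchyme list, Gli1 and Gli2 did not pass at either day. Gli3 fell at day 14 (log2 fold change −0.71, limma adjusted p = 0.00783). Nog, which encodes a BMP antagonist, rose by 1.49 at day 14 (limma adjusted p = 0.00199).

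The genes that fell included Jag1, a Notch ligand gene, and Epha4, an ephrin receptor gene of the coronal boundary. Jag1 stood at 16.3 and 16.7 RPKM against 6.76 and 7.25 at day 7 and at 12.3 and 13.3 against 5.12 and 4.15 at day 14 (log2 fold change −1.13 and −1.30, limma adjusted p = 0.00132 and 0.000362). Epha4 changed by −1.11 and −1.08 (limma adjusted p = 0.00213 and 0.00128). Fgf18 stood at 4.08 and 5.59 RPKM in control against 0.867 and 1.21 with LAMZ at day 14 (log2 fold change −1.51, limma adjusted p = 0.00102) and did not pass at day 7. The 24 genes had a median change of 0.06 on the log2 scale at both days.

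Hox genes, which cranial mesenchyme of the frontal vault lacks, were low. Of 39 listed, 3 were tested (Hoxa2, Hoxb2 and Hoxd8), and the summed RPKM of all 39 was 6.75 to 10.4 in control and 2.97 to 4.52 in LAMZ libraries. Hoxd8 was counted on 44 and 15 reads in control and 4 and 2 with LAMZ at day 7, and on 25 and 41 against 4 and 0 at day 14. It entered the test only through its control libraries, so its 2 calls (1 at each day) are no independent sign of a decrease.

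Across the 8 libraries, the genes most like each tested gene were sought by Pearson's r of log2(RPKM + 1) among 5598 other genes with a mean RPKM of at least 5. They share the libraries, their depth and the LAMZ groups, so r describes the pattern only. Twist1 was nearest to Myof (r = 0.989), Clic1 (0.987) and Arhgef40 (0.987), Twist2 to Dlk1 (0.985), Itpripl2 (0.981) and Psmb10 (0.974), Msx1 to Fech (0.988), Prdm2 (0.986) and Ids (0.983), and Msx2 to Acadm (0.987), Msl1 (0.982) and Nubp2 (0.974). Prrx1 was nearest to Commd10 (0.994), Rnase4 (0.993) and Spry1 (0.992), Prrx2 to Atoh8 (0.989), Lhfp (0.987) and Gm36569 (0.982), and Alx4 to Lrp5 (0.911), Sp1 (0.894) and Scp2 (0.891). Among the 7 themselves, r was highest between Msx1 and Prrx1 (0.962) and between Twist1 and Prrx2 (0.929), and that of Alx4 with the others ranged from −0.10 to 0.48.

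Other marker lists moved with LAMZ as well, and their part in the results above was not tested. Of 10 osteoblast markers, 6 rose at each day, where 4.35% of all tested genes were called higher at day 7 and 6.96% at day 14. Of 7 chondrocyte markers (Col2a1 and Comp highest), 5 rose at day 7, and 6 rose and Sox9 fell at day 14 (Matn1 entered the test only through its LAMZ libraries), with a summed RPKM of 158 to 258 in control and 454 to 519 in LAMZ libraries. Of 6 tested adipocyte markers (Lpl and Cebpa highest), 2 fell at day 7 and 4 at day 14, where 8.49% and 16.0% were called lower, and 2 of the 4 (Fabp4 and Adipoq) entered the test only through their control libraries. Endothelial (Egfl7 and Tek highest), skeletal muscle (Tnnt3 and Myog) and epithelial (Cdh1 and Epcam) markers summed to at most 4.79, 4.04 and 1.91 RPKM, and Cfd was at 0 in both day 7 LAMZ libraries. Tek, which entered the test only through its control libraries, was called lower at both days (log2 fold change −1.14 and −0.91, limma adjusted p = 0.0153 and 0.0217), and Tnnt3 rose at day 7 (0.97, 0.0464).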

How the data were processed

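RNA sequencing of 8 libraries was analysed. The authors sequenced on an Ion Proton, used CLC Genomics Workbench for mapping and counting, and deposited RPKM per gene symbol, against mm10 per the submitters' processing notes. The version and settings are not given in the sources used here. Of 51826 entries, 4 with repeated symbols were dropped. Mapped reads were recovered as the number at which low values (up to 5 reads, tolerance 0.05) of single-exon genes were whole at GENCODE M21 lengths (GRCm38), which held for 94.9% to 97.0% of 836 to 1435 values per library. Intervals and floors of 3 reads cover counting error only, since PCR reads are not independent molecules.

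The test was limma 3.58.1 (R 4.3.3, lmFit and eBayes with a trend) on log2(RPKM + 1), with 4 groups in 1 fit and Benjamini-Hochberg adjustment over 12514 genes (adjusted p under 0.05). The script was tested on simulated data. Ratios within libraries were compared by exact permutation within days (SciPy 1.17.1). Alternatives were other pseudocounts, filters, scalings, blocks, variance models and fits without 1 library. The voom fit and the sum without Rn7s1 were added after seeing the data. The genes and lists were chosen with earlier results of these data known. By rule, the text names the 8 genes, at most the 4 largest called changes per list and LAMZ comparison, the 3 most alike genes and the 2 highest markers per list. Some genes that the rule names are not reported here. Other genes named (the E proteins, Hand1, Hand2, Tcf15, Tcf21, untested AP-2 and Hox genes, Sox9, Sox10, Foxd3, Matn1, Fabp4, Adipoq, Cfd and macrophage markers at 0) were picked after their values were seen.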

Additional observations from a re-analysis of the deposited data

How the results depend on the processing

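The precision is limited by 2 libraries per group and by read numbers under 50 for Twist2. Across 21 alternatives, the day 14 calls of Twist1, Msx1, Prrx1 and Prrx2 held in all 21, that of Twist2 in 14 and that of Msx2 in 10, and the day 7 calls of Twist1 and Twist2 held in 20 and 18. The cause of the changes given here was not tested. Of the 7 genes, 5 were called at day 7 with libraries scaled to the same sum and 4 with that sum taken without Rn7s1, the gene with the highest RPKM in every library. These scalings called 7 at day 14, whereas median centring and quantile normalization each called 2 at day 7 and 4 at day 14. The median of all tested genes was −0.31 and −0.43 at the same sum and 0.03 and 0.04 after centring, beside −0.08 and −0.15, and higher calls made up 8.69% and 8.16%, 53.5% and 56.3% (45.7% and 47.9% after quantile normalization), beside 33.9% and 30.3%.

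Over all tested genes, 1607 were called at day 7, and 951 without a filter, 3592 at the same sum, 2454 without Rn7s1 and 624 with the 2 groups alone. At day 14, 2878 were called, and 5796 at the same sum and 4478 without Rn7s1. For the average of both days it was 3686, and 7207 and 5728. Over time in control cultures, 608 were called, and 203 without a filter, 1135 at the same sum, 0 with the 2 groups alone and 1047 with voom. Over time in LAMZ cultures, 1797 were called, and 1091 without a filter. For the difference between days, 78 were called, and 34 and 166 with pseudocounts of 0.1 and 5, 0 without a filter, 120 with a mean RPKM of at least 1, 30 without a mean-variance trend and 336 with voom, which called 1 of the 7 genes.

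Same-numbered libraries did not deviate together across genes (correlation −0.0166 at day 7 and 0.0158 at day 14). No label says whether they were set up together, and these correlations cannot decide it. With the replicate number as a block within each day, 984 genes were called at day 7, 41 over time in control, 452 over time in LAMZ (1 of the 7 genes) and 7 for the difference between days, or 17 with the block across all groups. Under the block within each day, the change over time of Prrx2 in control was −0.0525 and that of Twist2 in LAMZ 0.0969. For the Twist and Prrx ratios, exact permutation by flipping the sign of the differences between same-numbered libraries gave p = 0.125. No smaller p is possible with that permutation.

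The sign turned for changes near 0. At day 7, Alx4 was at −0.0912 at the same sum and −0.0038 without Rn7s1, and Prrx1 at 0.0477 after centring. The average of both days for Alx4 was 0.12 after centring and 0.0709 after quantile normalization. Over time, Msx1 in control was at 0.0949 at the same sum and Twist2 in LAMZ at 0.015 after centring. The difference between days of Twist1 was 0.0374 after centring, and the Msx ratio differed by −0.0156 with a pseudocount of 1.

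Leaving out each library in turn, with a lone library assumed to vary like the other groups, gave 527 to 1383 called genes at day 7, 1512 to 3087 at day 14, 69 to 453 over time in control, 488 to 1890 over time in LAMZ and 0 to 21 for the difference between days. Of the 7 genes, 0 to 3 were called at day 7 and 0 to 2 over time in LAMZ. Prrx1 ranged from −0.14 to 0.0133 at day 7, and Alx4 from −0.0897 to 0.0319 for the average. Over time in control, Msx1 ranged from −0.35 to 0.0635, Prrx1 from −0.0530 to 0.10 and Prrx2 from −0.10 to 0.27. The difference between days ranged from −0.23 to 0.15 for Twist1 and from −0.30 to 0.11 for Msx2, and the Msx ratio difference from −0.11 to 0.18.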
